A study of Mus musculus with 6 samples.

Results

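Type IV collagen and laminin are the main networks of the basement membrane on which the glomerular endothelium rests. Here the probesets of 10 chains were followed in sorted glomerular endothelial cells (GEC) of diabetic and normal mice. They were Col4a1 and Col4a2, which vessels and most other tissues make, Col4a3, Col4a4 and Col4a5, which podocytes make, and the laminin chains Lama4, Lama5, Lamb1, Lamb2 and Lamc1. They were taken by gene symbol from the 19938 genes that the annotation gave a probeset of their own. Each chain had 1 probeset.

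The db/db group held 3 samples of genotype Tie2-GFP/ DB/DB, in which the leptin receptor is defective, so that the mice grow obese and hyperglycaemic. The normal group held 3 samples of genotype Tie2-GFP/ +/+. All mice were 7 months old and carried the same transgene, in which the promoter of Tie2, a receptor of endothelium that some blood-borne cells also use, drives green fluorescent protein. Glomeruli were sieved, dissociated and sorted for green cells, and each sample was read on 1 Affymetrix Mouse Gene 1.0 ST array. The labels call the samples biological replicates without saying how many animals each held.

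In a mature glomerulus the endothelium and the podocytes share a single basement membrane. Collagen IV chains wind into trimers, and the network of Col4a3, Col4a4 and Col4a5 chains, which is laid down by podocytes, replaces most of the Col4a1 and Col4a2 network of the developing capillary. Mutations in the human counterparts of these podocyte chains cause Alport syndrome. Laminins are trimers of an alpha, a beta and a gamma chain. Lama5, Lamb2 and Lamc1 form the main laminin of the mature glomerular basement membrane, while Lama4 with Lamb1 and Lamc1 forms the laminin typical of vascular endothelium.

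Col4a1 and Col4a2 lie head to head and are transcribed away from each other. In the RefSeq promoter windows of GRCm38.p6, which reach from 250 bases before to 50 bases after a start site, the start sites of the pair lay 21 bases apart, and the windows shared the 78 bases of chr8:11312777-11312854. This stretch is shown because the signals of both genes followed each other across the arrays (r = 0.96). Col4a2 was 34th of 12762 genes in likeness to Col4a1, and whether the shared bases bear on this was not tested. It is written once for each gene, in that gene's own direction. Capitals mark CCCTCCCC and GGGCGG on either strand. CCCTCCCC is a string like the CTC box described for the human gene pair, whose full letters were not searched, and GGGCGG is the GC box.
Col4a1, minus strand: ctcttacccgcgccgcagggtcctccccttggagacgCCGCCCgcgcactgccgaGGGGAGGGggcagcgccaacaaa
Col4a2, plus strand: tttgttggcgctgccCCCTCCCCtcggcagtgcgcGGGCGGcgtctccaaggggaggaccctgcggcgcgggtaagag

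Over all 32851 promoter windows of this length, 10.8% held CCCTCCCC and 35.7% held GGGCGG on either strand. A window was listed for 7 of the 10 chains. CCCTCCCC occurred in those of Col4a1, Col4a2, Col4a5 and Lama5, and was not found in those of Col4a4, Lamb1 and Lamb2. The match of Col4a1 and that of Col4a2 are the same stretch of the shared bases. TATAAA, the TATA box, was found in none of the 7 windows, against 13.6% of all windows. The windows of Col4a1 and Col4a2 were rich in G and C, at 74.0% and 73.7%, against a median of 52.7% over all windows. The shares over all windows were not matched for this content. Such matches describe the letters of the windows and no binding.

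All values below are deposited log2 probeset signals, so that a difference of 1 is a doubling. Medians over all probesets lay between 7.00 and 7.04 in the 6 arrays, and the level of 100 on the linear scale, below which the study set probesets aside, is 6.64 on this scale. All 10 chains reached this level in enough arrays to be tested. The endothelial identity of the cells was clear from 13 of 13 pan-endothelial markers above the level, with Emcn, an endothelial sialomucin, at 13.63 ± 0.04 in db/db and 13.59 ± 0.02 in normal GEC (SD, n = 3 each). Kdr, a receptor of endothelial growth factor, was at 13.18 in db/db and 13.08 in normal GEC. Tek, which encodes Tie2 itself, lay lower in every db/db array, with 12.31 ± 0.16 in db/db and 12.64 ± 0.12 in normal GEC (SD, n = 3 each), and Cdh5, the endothelial cadherin, lay higher in every db/db array, with 13.06 ± 0.03 in db/db and 12.85 ± 0.07 in normal GEC (SD, n = 3 each). Both had an adjusted p of 0.754. Probes differ in brightness, so that a higher signal of 1 gene than of another is no measure of their RNA. The number of arrays limits the precision.

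Of the 10 chains, 0 passed limma's test of db/db against normal GEC at an adjusted p of 0.05, and 0% of the 20661 probesets tested did so. The adjusted p of the chains lay between 0.558 and 0.96, where the smallest of any probeset was 0.203. At an unadjusted p of 0.05, 2 chains were higher in db/db, namely Lama4 and Lamc1, against 3.48% of all probesets, and 0 were lower, against 2.91% of all probesets. The mean was higher in db/db for 8 of the 10 chains, with a median change of 0.07, where 53.9% of all probesets had a higher mean and the median change was 0.01. Every db/db array lay above every normal array for 4 chains, Col4a2, Col4a4, Lama4 and Lamc1, as was so for 7.01% of all probesets. Every db/db array lay below every normal array for 0 chains, against 5.31% of all probesets.

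**Figure D1:**
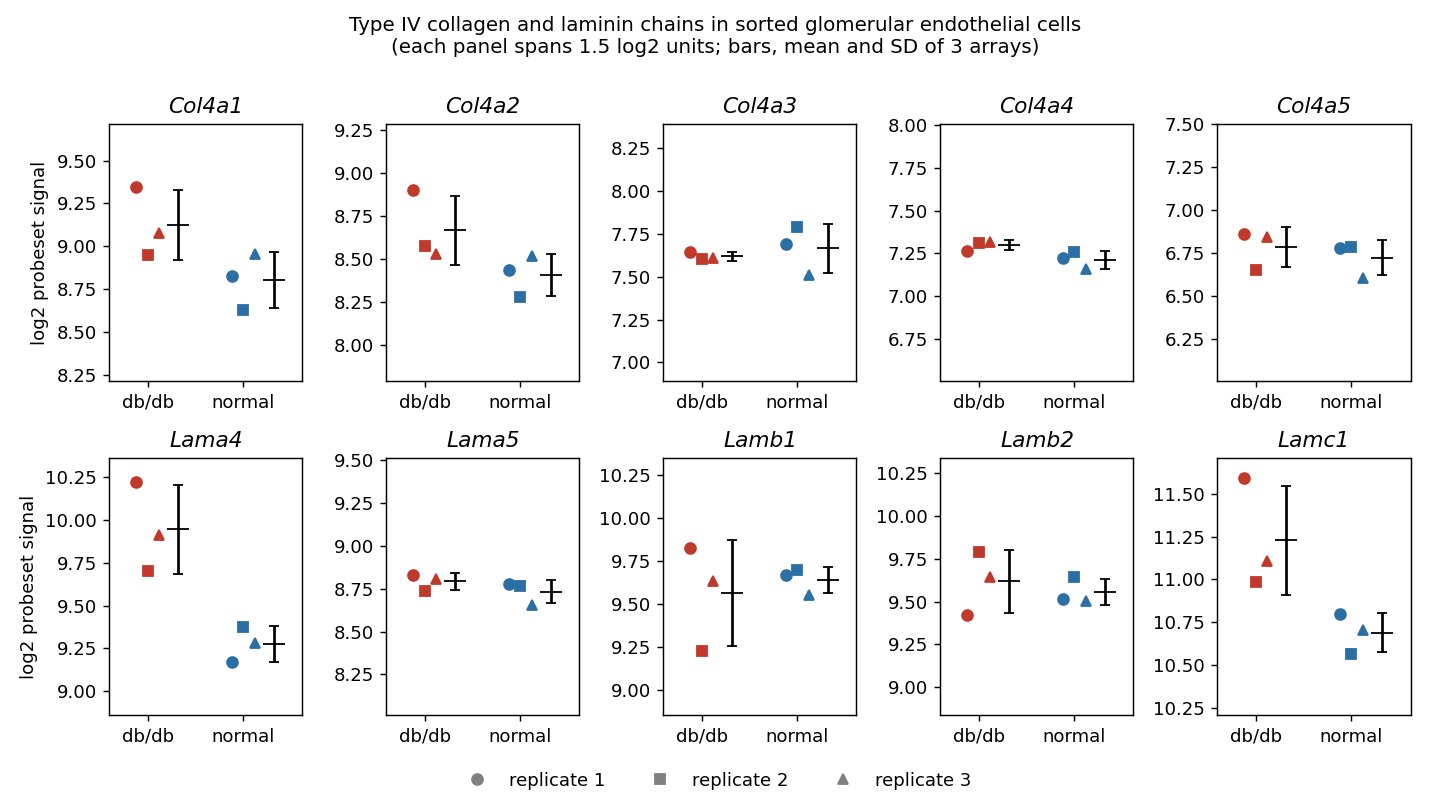
Log2 probeset signal of the 10 chains (1 panel each, spanning 1.5 log2 units) in each of the 3 db/db arrays and 3 normal arrays, with replicates by symbol and the mean and SD beside them. The groups are apart for Col4a2, Col4a4, Lama4 and Lamc1, and db/db replicate 1 is the highest array in 7 of the 10 panels.

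Lama4, the alpha chain of the endothelial laminin, had the largest difference among the chains. Its signal was 10.22, 9.70 and 9.91 in db/db replicates 1 to 3, against 9.17, 9.38 and 9.28 in normal replicates 1 to 3. The lowest db/db array was thus above the highest normal array, and db/db replicate 1 stood highest. The mean was 1.59-fold higher, a log2 change of 0.67 ± 0.15 (moderated SE) with a 95% interval from 0.29 to 1.04. It was 187th of all probesets by limma's p, but its adjusted p was 0.558. The change was 0.53 without db/db replicate 1 and lay between 0.53 and 0.79 over the fits that left out each array in turn.

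Lamc1, the gamma chain that the endothelial laminin and the main laminin of the glomerular membrane have in common, showed the next largest difference. Its signal was 11.59, 10.99 and 11.11 in db/db replicates 1 to 3, against 10.80, 10.57 and 10.70 in normal replicates 1 to 3. The groups did not overlap here either. The mean was 1.45-fold higher, a log2 change of 0.54 ± 0.18 with a 95% interval from 0.10 to 0.98 and an adjusted p of 0.717. Without db/db replicate 1 the change was 0.36.

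Lamb1, the beta chain that joins Lama4 and Lamc1 in endothelial laminin, did not share this difference between the groups. Its signal was 9.83, 9.23 and 9.64 in db/db replicates 1 to 3, against 9.67, 9.70 and 9.55 in normal replicates 1 to 3. The db/db arrays spread widely, and held both the highest and the lowest value. The log2 change was -0.08 ± 0.17, with an interval from -0.49 to 0.34 and an adjusted p of 0.96, and it was 0.09 without db/db replicate 2.

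The laminin chains that mark the mature glomerular membrane had small differences. Lamb2, whose human counterpart is mutated in Pierson syndrome, gave 9.42, 9.79 and 9.64 in db/db replicates 1 to 3, against 9.52, 9.65 and 9.50 in normal replicates 1 to 3. Lama5 gave 8.83, 8.74 and 8.81 in db/db replicates 1 to 3, against 8.78, 8.76 and 8.65 in normal replicates 1 to 3. The groups overlapped for both chains. The log2 changes were 0.06 ± 0.12 for Lamb2, with an interval from -0.23 to 0.36, and 0.06 ± 0.08 for Lama5, with an interval from -0.14 to 0.26. Lama5 gave 0.02 without normal replicate 3, and Lamb2 gave -0.02 without db/db replicate 2. Within the db/db group Lamb1 and Lamb2 ran opposite to each other, with replicate 1 highest for Lamb1 and lowest for Lamb2, and replicate 2 the reverse.

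**Figure D2:**
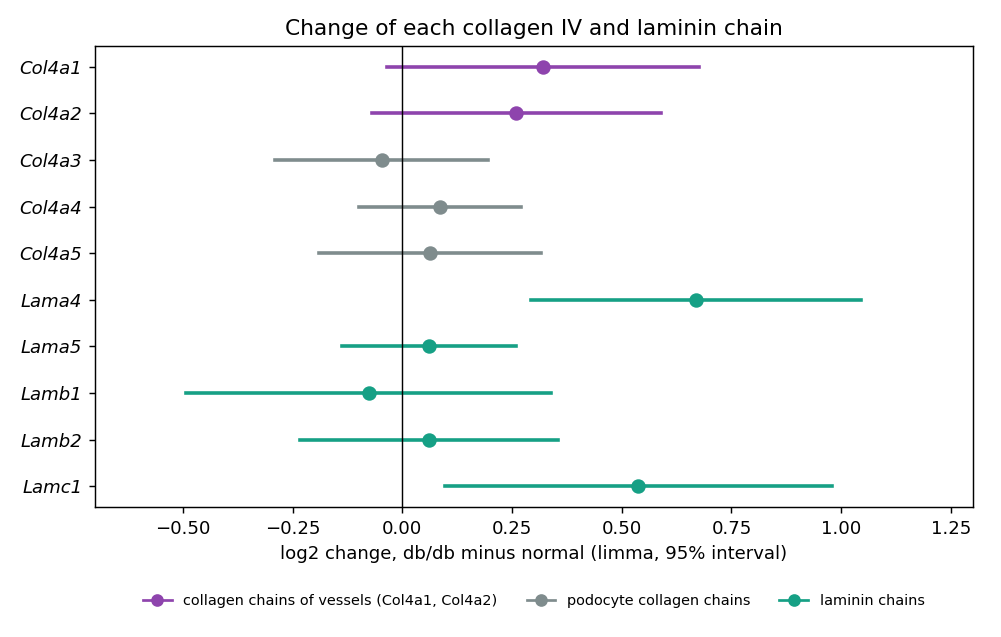
Log2 change of each chain, db/db minus normal, with limma's 95% interval (lines), coloured by chain group. The intervals of Lama4 (0.29 to 1.04) and Lamc1 (0.10 to 0.98) lie above 0, and those of the other 8 chains include 0. The intervals are those of single probesets and carry no adjustment.

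The vascular chains of collagen IV had higher means in db/db GEC, by less than Lama4 and Lamc1. Col4a1 gave 9.35, 8.95 and 9.08 in db/db replicates 1 to 3, against 8.83, 8.63 and 8.96 in normal replicates 1 to 3, so that the lowest db/db array lay just under the highest normal array. Col4a2 gave 8.90, 8.58 and 8.53 in db/db replicates 1 to 3, against 8.43, 8.28 and 8.52 in normal replicates 1 to 3, with the groups barely apart. The means differed by 1.25-fold for Col4a1, with a log2 interval from -0.03 to 0.68, and by 1.20-fold for Col4a2, with a log2 interval from -0.07 to 0.59. Their adjusted p were 0.796 and 0.825. Much of both differences lay in db/db replicate 1, without which the log2 change was 0.21 for Col4a1, against 0.32 with all arrays, and 0.14 for Col4a2, against 0.26 with all arrays.

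The podocyte chains of collagen IV had low signal in both groups and little difference between them. Col4a3 gave 7.65, 7.60 and 7.61 in db/db replicates 1 to 3, against 7.69, 7.79 and 7.51 in normal replicates 1 to 3. Col4a4 gave 7.27, 7.31 and 7.32 in db/db replicates 1 to 3, against 7.22, 7.26 and 7.16 in normal replicates 1 to 3. Col4a5, which passed the level of 100 in 5 of 6 arrays, gave 6.86, 6.65 and 6.84 in db/db replicates 1 to 3, against 6.78, 6.78 and 6.60 in normal replicates 1 to 3. The groups overlapped for Col4a3 and Col4a5 and were narrowly apart for Col4a4. The log2 changes were -0.05 ± 0.10 for Col4a3, 0.09 ± 0.07 for Col4a4 and 0.06 ± 0.10 for Col4a5. Without normal replicate 3 the change of Col4a5 was 0.0037, and without db/db replicate 2 it was 0.13. Their intervals reached at most 0.32 in size, at the upper end for Col4a5.

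Set side by side, the mean log2 change was 0.29 over the vascular chains and 0.03 over the podocyte chains. The difference of 0.26 is given as a description, without a test. Per array, the mean of the vascular chains less that of the podocyte chains was 1.87, 1.58 and 1.55 in db/db replicates 1 to 3, against 1.40, 1.18 and 1.65 in normal replicates 1 to 3. The groups overlapped, since normal replicate 3 lay above db/db replicates 2 and 3. The difference was 0.15 without db/db replicate 1 and 0.14 without normal replicate 2.

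In bulk RNA, fewer cells of a type and less RNA per cell cannot be told apart, and markers of podocytes were therefore read in the same arrays. Of 15 podocyte markers 12 had a probeset of their own, 7 passed the level filter and 3 of those 7 had their higher mean in the db/db group. The linear signal summed over all 12, with those below the level included, ran from 2593 to 2937 in db/db and from 2881 to 3175 in normal arrays. Vegfa, Nes, Cdkn1c and Thsd7a, the brightest of the 12, weigh most in this sum, and each had its lower mean in db/db. The 3 tested markers with a higher mean in db/db were Nphs1, Wt1 and Synpo, which had a log2 change of 0.24 ± 0.16. Of the untested markers, Ptpro, Plce1, Tcf21 and Kirrel also had higher means in db/db, and Npr3 had a lower one. The means of these untested markers lay below the level of 100 in both groups. The defining markers Nphs1, which encodes the slit protein nephrin, and Wt1, a podocyte transcription factor, were near the level of 100, with 7.05 ± 0.14 and 7.10 ± 0.01 in db/db GEC and 6.98 ± 0.11 and 7.02 ± 0.04 in normal GEC (SD, n = 3 each). Cdkn1c, an inhibitor of the cell cycle that podocytes express, had the smallest p of the list, with 8.48 ± 0.09 in db/db and 8.89 ± 0.17 in normal GEC (SD, n = 3 each), a log2 change of -0.40 ± 0.12 and an adjusted p of 0.677. Vegfa, the endothelial growth factor that podocytes secrete, gave 9.62 ± 0.18 in db/db and 9.89 ± 0.21 in normal GEC (SD, n = 3 each). The part of podocyte RNA in the signals of Col4a3, Col4a4 and Col4a5 was not tested.

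Col4a1, Col4a2, Lama4 and Lamc1, the 4 chains with the largest changes, were followed array by array. Taken as each array's signal less the mean of the normal arrays, db/db replicate 1 stood at 0.94 for Lama4, 0.90 for Lamc1, 0.54 for Col4a1 and 0.49 for Col4a2. For db/db replicate 2 the same quantities were 0.43, 0.30, 0.15 and 0.17, and for db/db replicate 3 they were 0.64, 0.42, 0.27 and 0.12. So db/db replicate 1 was the highest array for all 4 of these chains, as it was for Col4a5, Lama5 and Lamb1. Lamb2 and Col4a4, whose means were also higher in db/db, were lowest among the db/db arrays in replicate 1.

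**Figure D3:**
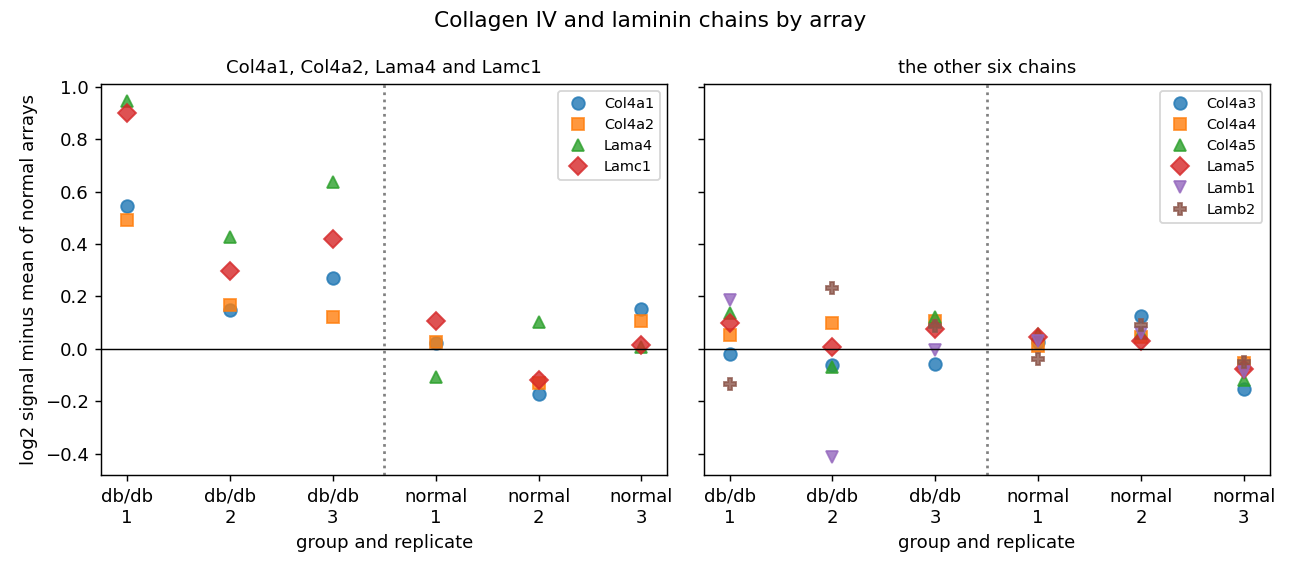
Log2 signal of each chain less its mean over the 3 normal arrays, for each of the 6 arrays. Lama4, Lamc1, Col4a1 and Col4a2 (left) are highest in db/db replicate 1, at 0.94, 0.90, 0.54 and 0.49, as are 3 of the remaining 6 chains (right), Col4a5, Lama5 and Lamb1. Lamb1 is at -0.41 in db/db replicate 2.

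The same array had the highest sum of leukocyte markers. Of 16 markers 6 passed the filter and 7 stayed below the level of 100 in all arrays. The linear signal summed over all 16 was 3470 in db/db replicate 1, 1489 and 1940 in db/db replicates 2 and 3, and between 1760 and 1877 in normal arrays. Tyrobp and Cd74, the brightest of the 16 in db/db replicate 1, weigh most in its sum. Of the 6 tested markers 0 passed in either direction, and the db/db mean was the higher one for 3, Cd68, C1qa and Cd74. Cd68, a macrophage marker with the smallest p of the list, gave 7.95, 7.59 and 6.91 in db/db replicates 1 to 3, against 6.63, 6.72 and 6.81 in normal replicates 1 to 3, so that all db/db arrays lay above the normal arrays (log2 change of 0.76 ± 0.27, adjusted p = 0.752). Cd74, the invariant chain of MHC class II, gave 9.53, 6.93 and 7.96 in db/db replicates 1 to 3, against 7.48, 7.14 and 7.27 in normal replicates 1 to 3. Tyrobp, an adaptor of myeloid receptors, gave 10.04, 7.45 and 8.83 in db/db replicates 1 to 3, against 9.03, 8.68 and 8.79 in normal replicates 1 to 3. C1qa, a complement subunit made by macrophages, was at 8.27 in db/db replicate 1 and between 6.81 and 7.23 in the other arrays, while the T cell marker Cd3e and the neutrophil marker S100a9 had lower means in db/db, by changes of -0.11 ± 0.16 and -0.29 ± 0.38. So Cd68, Cd74, Tyrobp and C1qa were highest in db/db replicate 1, while Cd3e and S100a9 were highest in a normal array. Lyz2, C1qb and Fcer1g, which did not pass the filter, were also highest in db/db replicate 1. They gave 7.41, 6.88 and 7.12 there, and at most 6.82, 6.49 and 6.58 in the other arrays. The 7 markers below the level in all arrays were Ptprc, which all leukocytes carry, Adgre1, Csf1r, Itgam, Itgax, Cd79a and S100a8. Of these, the macrophage markers Adgre1 and Csf1r had means of 5.33 and 6.25 in db/db and of 5.32 and 6.17 in normal GEC. Alpha-globin signal, read by a pair of probesets that Hba-a1 and Hba-a2 share, was lower in db/db, with means of 9.47 and 9.38 in db/db GEC and of 11.54 and 11.43 in normal GEC. It was lowest in db/db replicate 1, at 8.75 and 8.60. Beta-globin signal, read by a further pair of shared probesets, was lower in db/db too. Its means were 10.98 and 11.07 in db/db GEC and 12.75 and 12.84 in normal GEC. The part of these cells in the signals of Lama4, Lamc1, Col4a1 and Col4a2 was not tested, and the values without db/db replicate 1 are given with each chain above.

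Likeness of pattern was measured as Pearson's r over the 6 arrays against 12762 other genes, each by 1 probeset. With so few arrays many genes reach a high r, and the arrays share their groups, so that ranks are a description only. Col4a2 was 34th in likeness to Col4a1 (r = 0.96), Lamc1 was 79th (r = 0.94) and Lama4 was 443rd (r = 0.83). With the mean of each group removed, r with Col4a1 was 0.93 for Col4a2 (139th), 0.87 for Lamc1 (351st) and 0.59 for Lama4 (1889th). The other laminin chains then had r of -0.95 for Lamb2, 0.55 for Lamb1 and 0.02 for Lama5. By that measure the podocyte chains had r of -0.46 for Col4a3, -0.88 for Col4a4 and 0.12 for Col4a5. With the group means kept, their r with Col4a1 was -0.50, 0.20 and 0.32 in the same order. The genes most like Col4a1 were Myo6, a myosin motor (r = 0.99), and Cplx2, Cd27, Tha1 and Wbp11. Those most like Lama4 were Stx17, a syntaxin of membrane fusion (r = 0.99), and Usp25, Cxcl13, Cd93 and Rarres2. For the chains that join Lama4 in endothelial laminin, r with Lama4 was 0.91 for Lamc1 and 0.19 for Lamb1. With the mean of each group removed it was 0.73 for Lamc1 and 0.87 for Lamb1.

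Other chains of the families were mostly near or below the level of 100. Of 7 further collagen IV and laminin chains 4 were tested, 0 passed the test in either direction and the mean was higher in db/db for 2 of them. Lama3, an alpha chain best known from epithelium, had the smallest p and lay lower in every db/db array, with 8.93 ± 0.17 in db/db and 9.34 ± 0.26 in normal GEC (SD, n = 3 each), a log2 change of -0.41 ± 0.17 and an adjusted p of 0.783. Lamb3, a beta chain of epithelial laminin, had a log2 change of 0.09 ± 0.08, Col4a6, the neighbour of Col4a5, of 0.03 ± 0.10, and Lamc3, a further gamma chain, of -0.01 ± 0.09. Lama1, the alpha chain of embryonic membranes, and Lama2, that of muscle, did not pass the filter.

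The remaining components of basement membranes did not pass the test either, with 0 of 13 measured genes higher and 0 lower, and a median change of 0.06. Sparc, a secreted collagen-binding protein, was at 13.58 ± 0.07 in db/db and 13.51 ± 0.02 in normal GEC, and Ntn4, a laminin-related netrin, was at 10.47 ± 0.16 in db/db and 10.67 ± 0.01 in normal GEC (SD, n = 3 each). Nid2, a nidogen that links laminin to collagen IV, lay above the normal arrays in every db/db array, with a log2 change of 0.24 ± 0.12. Npnt, the integrin ligand nephronectin, had a log2 change of -0.61 ± 0.29, and Ntn4 of -0.21 ± 0.10. Their adjusted p lay between 0.814 and 0.822.

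Enzymes and chaperones that fold, hydroxylate, export and cross-link collagen were counted as a further list, in which 0 of 18 measured genes passed in either direction and the median change was 0.09. Mia2, which helps to load collagen into transport carriers, had a log2 change of 0.22 ± 0.08. Crtap, of the prolyl 3-hydroxylase complex, and P4ha2, a prolyl 4-hydroxylase subunit, had log2 changes of -0.22 ± 0.09 and -0.42 ± 0.18. Ppib, a prolyl isomerase, had a change of 0.04 ± 0.08, and P4hb, protein disulphide isomerase, of 0.09 ± 0.12. Differences of both signs thus stood side by side in this list, and the adjusted p of Mia2, Crtap and P4ha2 lay between 0.754 and 0.783.

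Among the receptors of collagen IV and laminin, Itga1 was the only one whose change was larger in size than that of Lama4. Of 14 measured receptors 0 passed in either direction, and the median change was 0.05. Itga3, the alpha subunit of a laminin receptor, gave 9.25, 9.42 and 9.52 in db/db replicates 1 to 3, against 10.07, 9.95 and 10.06 in normal replicates 1 to 3, a log2 change of -0.63 ± 0.10 (adjusted p = 0.359). Itga1, the alpha subunit of a collagen IV receptor, gave 8.87, 8.56 and 8.71 in db/db replicates 1 to 3, against 6.46, 7.43 and 7.97 in normal replicates 1 to 3, a log2 change of 1.43 ± 0.38 (adjusted p = 0.626). The groups were apart for both, and the normal arrays spread widely for Itga1. Itga6, another laminin receptor subunit, had a log2 change of 0.27 ± 0.10 (adjusted p = 0.754), and Itgb1, the common beta subunit, had 0.09 ± 0.11.

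Among 11 measured genes of matrix turnover 0 passed in either direction, with a median change of 0.13 and Ctsb, a lysosomal protease, at 0.48 ± 0.14 (adjusted p = 0.677). The gelatinases Mmp9 and Mmp2, which cleave collagen IV, had changes of 0.15 ± 0.08 and 0.41 ± 0.24. Mmp9 lay at the level of 100 and passed the filter only through the db/db arrays. It gave 6.70, 6.65 and 6.70 in db/db replicates 1 to 3, against 6.56, 6.59 and 6.46 in normal replicates 1 to 3. Plat, tissue plasminogen activator, had a change of 0.08 ± 0.08 and Timp3, a matrix-bound protease inhibitor, of -0.01 ± 0.09. Among 13 measured genes of interstitial matrix 0 passed, with a median change of 0.07. Bgn, a small proteoglycan, gave 8.55, 8.73 and 8.01 in db/db replicates 1 to 3, against 7.04, 6.98 and 6.80 in normal replicates 1 to 3, a log2 change of 1.49 ± 0.20 (adjusted p = 0.328). Fn1, fibronectin, had a change of 0.34 ± 0.17, and Ctgf, a matrix-bound growth factor, of 0.13 ± 0.17. The fibrillar collagens Col1a1, Col1a2 and Col3a1 had changes of 0.02 ± 0.12, 0.10 ± 0.11 and 0.10 ± 0.10. Markers of mesangial and smooth muscle cells, which make interstitial and mesangial matrix, were summed as linear signal over the 13 with a probeset. The sum lay between 1781 and 1967 in db/db and between 1686 and 1848 in normal arrays. Of these markers 6 were tested and 0 passed in either direction. For all 6 the db/db mean exceeded the normal one, as it did for 53.9% of all probesets, and their median change was 0.07. The brightest was Meis1, which the paper reads as a mesangial marker of low signal in GEC. It gave 8.78, 9.04 and 8.97 in db/db replicates 1 to 3, against 9.03, 7.94 and 8.94 in normal replicates 1 to 3. Its log2 change was 0.29 ± 0.31 (adjusted p = 0.907). Pdgfrb, a defining marker of mesangial cells, stayed below the level of 100 in all 6 arrays. Of the untested markers of this list, Pdgfra, Gata3 and Rgs5 had lower means in db/db, and Pdgfrb, Itga8, Des and Cnn1 had higher ones. Of the markers of parietal epithelium, tubule and erythrocytes 3, 7 and 2 were tested, and 0 of them passed in either direction. The 2 erythrocyte markers were Alas2 and Slc4a1, without the globins, whose signal was lower in db/db as given above. All 12 tubule markers summed to between 2106 and 2306 in db/db and between 2183 and 2299 in normal arrays. Aqp1, the brightest of them, weighs most in this sum and had its lower mean in db/db. Of the 7 tested tubule markers 6 had a higher mean in db/db, as did 53.9% of all probesets. The median change of the 7 was 0.16. Umod and Slc22a6 lay above the normal arrays in every db/db array. Both were near the level of 100 and passed the filter only through the db/db arrays.

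**Figure D4:**
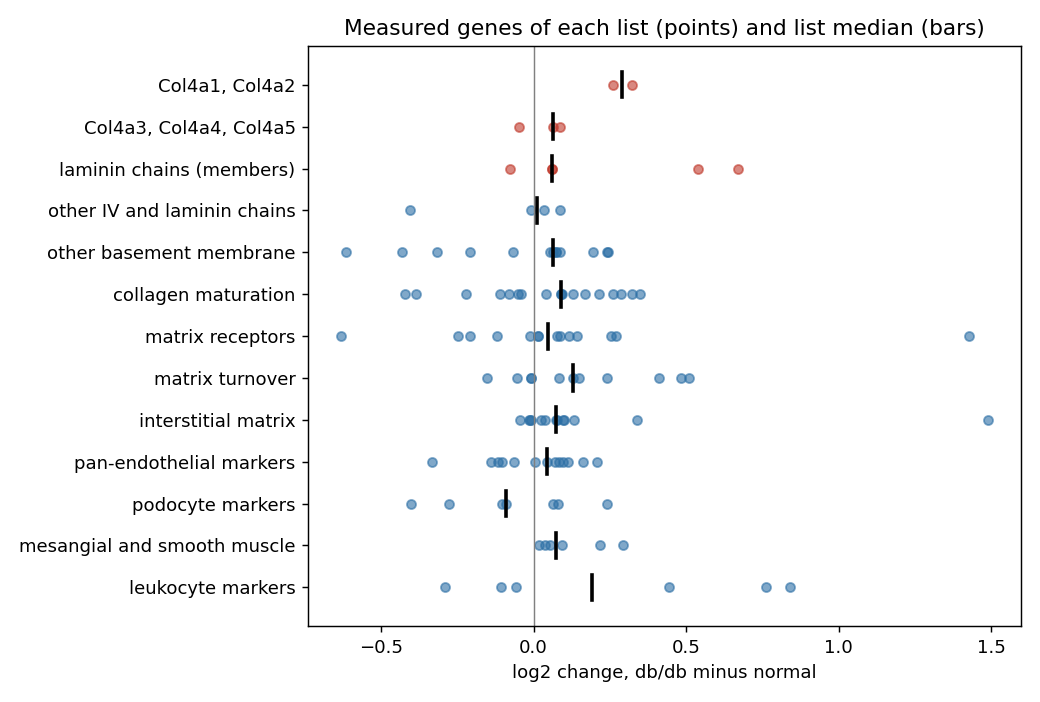
Log2 change, db/db minus normal, of the measured genes of each list (points) and the median of each list (black bars), for 13 of the 16 lists. The chains are in red and the other lists in blue. The medians lie between -0.09 for podocyte markers and 0.29 for Col4a1 and Col4a2, and Bgn (1.49) and Itga1 (1.43) lie farthest to the right.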

How the data were processed

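RNA of sorted cells was amplified and hybridised to 6 arrays by the authors. The deposited values are log2 probeset signals. The study's methods give RMA normalisation in GeneSpring, and the submitters' processing notes name MAS5. Once sorted, no array departed from normal replicate 1 by more than 0.114. The deposited log2 values were used without further normalisation, so that changes are relative to the other probesets of an array. A genome build is not given in the sources used here.

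The annotation named a single gene for 21789 of 35557 probesets, more than 1 gene for 1621 and no gene for 12147. A probeset was tested if its linear value reached 100 in at least 3 arrays (20661 probesets). Groups came from the labels and were compared with limma 3.58.1 in R 4.3.3 (lmFit, eBayes, two-sided, Benjamini-Hochberg over all tested probesets). Exact permutation of 3 against 3 arrays has a smallest two-sided p of 0.1 and was not used. The p-values measure the spread between these samples only. A gene was read by its probeset with the highest mean. The members and lists were chosen with earlier results of these data known, and no list was tested as a set. By rule, the genes named in a further matrix list were up to 3 with the smallest p and the 2 with the highest mean signal, a choice of examples and not a ranking of RNA levels. Of cell type lists the rule names defining markers. Other genes (Lama1, Lama2, Col1a2, Tek, Cdh5, Cdkn1c, Synpo, Nes, Thsd7a, Ptpro, Plce1, Tcf21, Kirrel, Npr3, Meis1, Pdgfra, Itga8, Gata3, Des, Rgs5, Cnn1, Cd68, C1qa, C1qb, Lyz2, Fcer1g, Cd3e, S100a9, Adgre1, Csf1r, Itgam, Itgax, Cd79a, S100a8, Aqp1, Umod, Slc22a6, Alas2 and Slc4a1) were chosen after their values were seen. Of 194 list entries 17 had no probeset of their own and were not used here. Alternatives were quantile normalisation, median centring, other level filters, trended and robust priors, a replicate block, array weights, the methods' t-test, fewer probesets and leaving out each array. The fit was tested on simulated data. Promoters came from RefSeq (GRCm38.p6), for 7 of the 10 chains. Figures used matplotlib 3.10.9 (Python 3.11.15).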

Additional observations from a re-analysis of the deposited data

How the results depend on the processing

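No chain passed an adjusted p of 0.05 under any alternative (174 of 178 changes of single chains kept their direction and their side of the threshold). By the methods' t-test without adjustment 1 of the 10 chains (Lama4) and 1280 of all probesets passed, and 0 did after Benjamini-Hochberg. With only probesets of a single symbol, or 1 probeset per gene, 1 probeset passed over all genes, that of Scn7a. Leaving out each array in turn gave log2 changes from -0.21 to 0.09 for Lamb1, from -0.02 to 0.16 for Lamb2 and from -0.12 to 0.02 for Col4a3, so that these changed sign, Lamb1 to 0.092 and Lamb2 to -0.023 without db/db replicate 2 and Col4a3 to 0.016 without normal replicate 2. Lama4 ranged from 0.53 to 0.79, Lamc1 from 0.36 to 0.66, Col4a1 from 0.21 to 0.41, Col4a2 from 0.14 to 0.33, Col4a4 from 0.06 to 0.11, Col4a5 from 0.0037 to 0.13 and Lama5 from 0.02 to 0.09. Every db/db array lay above every normal array for 4 chains when db/db replicate 1 or 3 or normal replicate 1 or 2 was left out, for 5 without normal replicate 3 and for 7 without db/db replicate 2, against 11.3% to 13.2% of all probesets (an alternative chosen after seeing the data).

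Replicate numbers recur in both groups, but same-numbered arrays did not deviate together (r between -0.03 and 0.04). With the replicate block 0 of the 10 chains passed, and the adjusted p of Lama4 was 0.748 at the same log2 change of 0.67. With 3 arrays a group, changes of the size seen for Col4a1 and Col4a2 were not resolved. A stricter level filter left Col4a4 and Col4a5 untested. Taking the mean of a gene's probesets could give no other value, since each chain had 1 probeset.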
